A study of Mus musculus with 16 samples.

Results

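Among the 16 libraries of the series, 8 came from mice given paclitaxel (PTX), and these 8 carried either of 2 dates in their titles. The comparison here sets the 4 PTX libraries titled 9/25 (replicates 3 and 4 of each genotype) against the 4 titled 9/24 (replicates 1 and 2 of each genotype), with treatment the same in all 8 and genotype balanced over the dates. The 2 sets were formed by title date alone, but the comparison was chosen with earlier results of these data known. The mice were males of 8 to 16 weeks. The CKO group had floxed alleles of Ltbr, the lymphotoxin-beta receptor gene, together with Cre recombinase driven by Nav1.8, the sodium channel of nociceptors that Scn10a encodes. The fl/fl group had the floxed alleles without the Cre, so every animal carried floxed Ltbr. PTX, a microtubule-stabilising cancer drug known for causing painful neuropathy, had been injected intraperitoneally at 6 mg per kg, 3 times with 2 days between injections. A fluorescent wheat germ agglutinin, a lectin tracer that nerve endings take up and carry to the cell body, was given into the paw 16 days after PTX ended, and the L3 to L5 dorsal root ganglia were taken at 18 days. Tracer-positive cells were sorted by flow cytometry and poly(A) RNA was sequenced. The labels do not say which step the title dates mark, nor whether replicates were separate animals. The p-values below rest on library-to-library spread that could be technical, and title date cannot be told apart from replicate number or from anything else that changed between the dates.

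A dorsal root ganglion holds the cell bodies of sensory neurons, each wrapped by satellite glial cells, beside Schwann cells, vessels and resident macrophages. Peptidergic nociceptors make the neuropeptides CGRP and substance P, while nonpeptidergic nociceptors carry receptors such as Mrgprd and P2X3 and innervate mainly the skin. Neutrophils are short-lived blood granulocytes that fill primary (azurophil) granules early and secondary (specific) granules later in their maturation. Immediate-early genes are transcribed within minutes of stimulation without new protein synthesis, and they are known to respond to tissue dissociation as well as to neuronal activity.

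The 8 libraries held 7906504 to 11668007 counts in genes. Genes with at least 1 count numbered 12136 to 14387 on 9/25 and 13487 to 15418 on 9/24. The 2 libraries numbered 4 on 9/25 had the fewest, 12136 in CKO and 12347 in fl/fl. Counted alignments on no annotated feature made up 20.8 ± 2.23% on 9/25 and 14.99 ± 1.74% on 9/24 (SD, n = 4 each), with no overlap between the dates (two-sided exact permutation p = 0.0286, the smallest that 70 assignments allow, 0.0571 adjusted over 6 library measures). Correlations of log2(CPM + 1), CPM being counts scaled by library size, were 0.621 to 0.885 between libraries of 9/25, 0.867 to 0.968 between libraries of 9/24 and 0.543 to 0.814 across the dates. Ltbr, the targeted gene, had 21.6 and 29.9 CPM in the libraries labelled CKO and 13.4 and 16.3 CPM in fl/fl on 9/25, against 25.7 and 6.14 CPM in the libraries labelled CKO and 6.11 and 8.68 CPM in fl/fl on 9/24. Its mean was not below that of fl/fl in the CKO libraries of either date, so the genotype is used here only as a label. The dates overlapped for Ltbr, and edgeR's quasi-likelihood test gave a log2 fold change of 0.85 ± 0.58 (SE, adjusted p = 0.452).

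The libraries of 9/25 held far more RNA of neutrophils and other leukocytes than those of 9/24. They also held more RNA of immediate-early genes and of genes of lymphotoxin and NF-kB signalling. The summed shares of pan-neuronal, peptidergic and, above all, nonpeptidergic nociceptor genes were lower on 9/25. Those of C-low-threshold mechanoreceptor and cold receptor genes overlapped between the dates. Of 14216 genes tested with edgeR's quasi-likelihood test and genotype as a block, 915 were called higher on 9/25 (6.44%) and 481 lower (3.38%) at an adjusted p under 0.05, together 9.82%. The median log2 fold change of all genes was -0.11. Upper-quartile scaling gave 836 higher and 720 lower, and scaling to total counts 861 higher and 774 lower, each lowering the median of all genes by over 0.1. The libraries of both dates did not overlap for 1434 genes that were higher (10.1%) and 1734 that were lower (12.2%). The count rests in part on single libraries of both dates, and each omission also left fewer libraries in the fit. Without the fl/fl library 1 of 9/24 it was 536 higher and 183 lower, and without the CKO library 2 of 9/24 it was 466 and 172. The lower count was 232 without the fl/fl library 2 and 312 without the CKO library 1 of 9/24. Without the fl/fl library 3 of 9/25 the count was 652 higher and 405 lower, and without the CKO library 3 of 9/25 it was 669 and 323. In bulk RNA, a change in the number of cells of a type cannot be told apart from a change in RNA per cell.

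**Figure D1:**
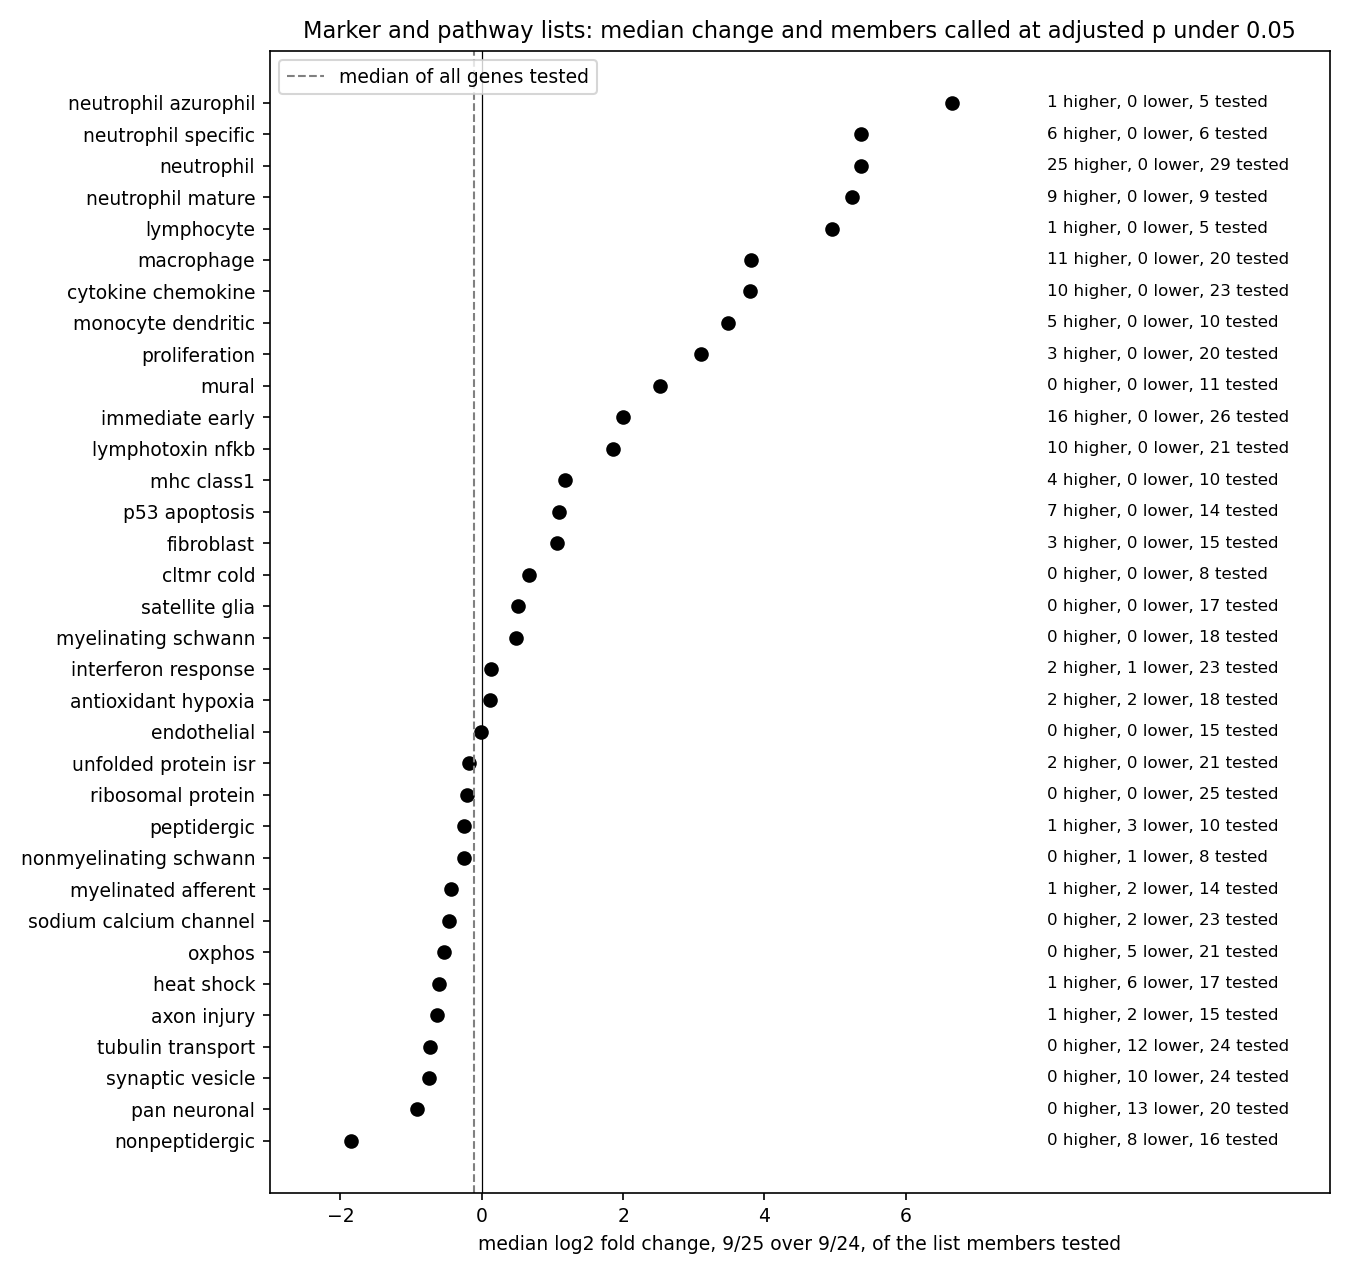
Median log2 fold change, 9/25 over 9/24, of the tested members of each marker or pathway list with at least 5 tested members (points, log2 scale), with the numbers called at right and the median of all genes tested as a dashed line. Neutrophil lists lie at the top, with 25 of 29 members called higher, and nonpeptidergic nociceptor genes at the bottom, with 8 of 16 called lower.

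Neutrophil genes were higher on 9/25. Of 29 tested neutrophil markers, 25 were called higher on 9/25 and 0 lower, with a median log2 fold change of 5.37. Their summed share of gene counts was 13.1% and 7.54% in CKO and 11.3% and 6.04% in fl/fl on 9/25, against 0.0380% and 0.110% in CKO and 0.614% and 1.15% in fl/fl on 9/24. Every library of 9/25 thus held over 5 times the share of any library of 9/24, and on 9/24 both CKO libraries lay below both fl/fl libraries. In the 8 vehicle libraries of the series the same share was 8.29% to 20.8%, so the libraries of 9/24 stood apart from both. The count of called members fell to 16 without the fl/fl library 1 of 9/24 and to 12 without the CKO library 2 of 9/24, was 16 with no filter on low counts, and was 26 without both libraries numbered 4 of 9/25.

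S100a8, a subunit of calprotectin, the most abundant cytosolic protein of neutrophils, had 41054 and 20777 CPM in CKO and 42222 and 20400 CPM in fl/fl on 9/25, against 113 and 391.6 CPM in CKO and 1853 and 3528 CPM in fl/fl on 9/24 (log2 fold change 5.24 ± 0.89, edgeR adjusted p = 0.00831). The lowest library of 9/25 was above the highest of 9/24. Its partner S100a9 averaged 19206 ± 7320 CPM on 9/25 and 932 ± 978 CPM on 9/24. Genes of mature neutrophils were called higher for 9 of 9 members. Among them Cxcr2, a chemokine receptor, averaged 334 ± 64.6 CPM on 9/25 and 10.9 ± 10.3 CPM on 9/24, and Csf3r, the receptor of the growth factor G-CSF, averaged 442 ± 121 and 17.3 ± 19.4 CPM in the same order of dates. Trem1, an activating receptor, averaged 636 ± 125 CPM on 9/25 and 36.4 ± 34.6 CPM on 9/24 and had the smallest adjusted p of the list (edgeR, 0.00361).

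Genes of specific granules were called higher for 6 of 6 members, with a median log2 fold change of 5.37. Ngp, neutrophilic granule protein, had 25745 and 13064 CPM in CKO and 16214 and 5934 CPM in fl/fl on 9/25, against 42.8 and 96.1 CPM in CKO and 814 and 1705 CPM in fl/fl on 9/24. Ltf, which encodes lactoferrin, averaged 7757 ± 4166 CPM on 9/25 and 329 ± 393 CPM on 9/24. The 6 calls depended on single libraries, since 0 remained past the threshold without the fl/fl library 1 or without the CKO library 2 of 9/24, and 2 without the CKO library 1 of 9/24, and 1 with no filter on low counts. Azurophil granule genes were uneven among the libraries of 9/25, and 1 of 5 was called. Mpo, which encodes myeloperoxidase, had 2877 and 383 CPM in CKO and 396 and 0.318 CPM in fl/fl on 9/25, against 0.976 and 0.495 CPM in CKO and 5.86 and 21.5 CPM in fl/fl on 9/24 (edgeR adjusted p = 0.119). The fl/fl library 4 of 9/25 was the lowest of all 8 for Mpo although its neutrophil share was 6.04%. Elane, which encodes neutrophil elastase, had 0.106 CPM in that library and 131 to 848 CPM in the other 3 of 9/25. Ctsg, which encodes cathepsin G, was the azurophil gene called higher, with 335, 15.5, 60.3 and 12.3 CPM on 9/25 and at most 2.21 CPM on 9/24. That call was lost with no filter on low counts and without the fl/fl library 1 of 9/24, the fl/fl library 3 of 9/25 or either CKO library of 9/24, while 4 azurophil genes were called by DESeq2 and without the fl/fl library 4 of 9/25.

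**Figure D2:**
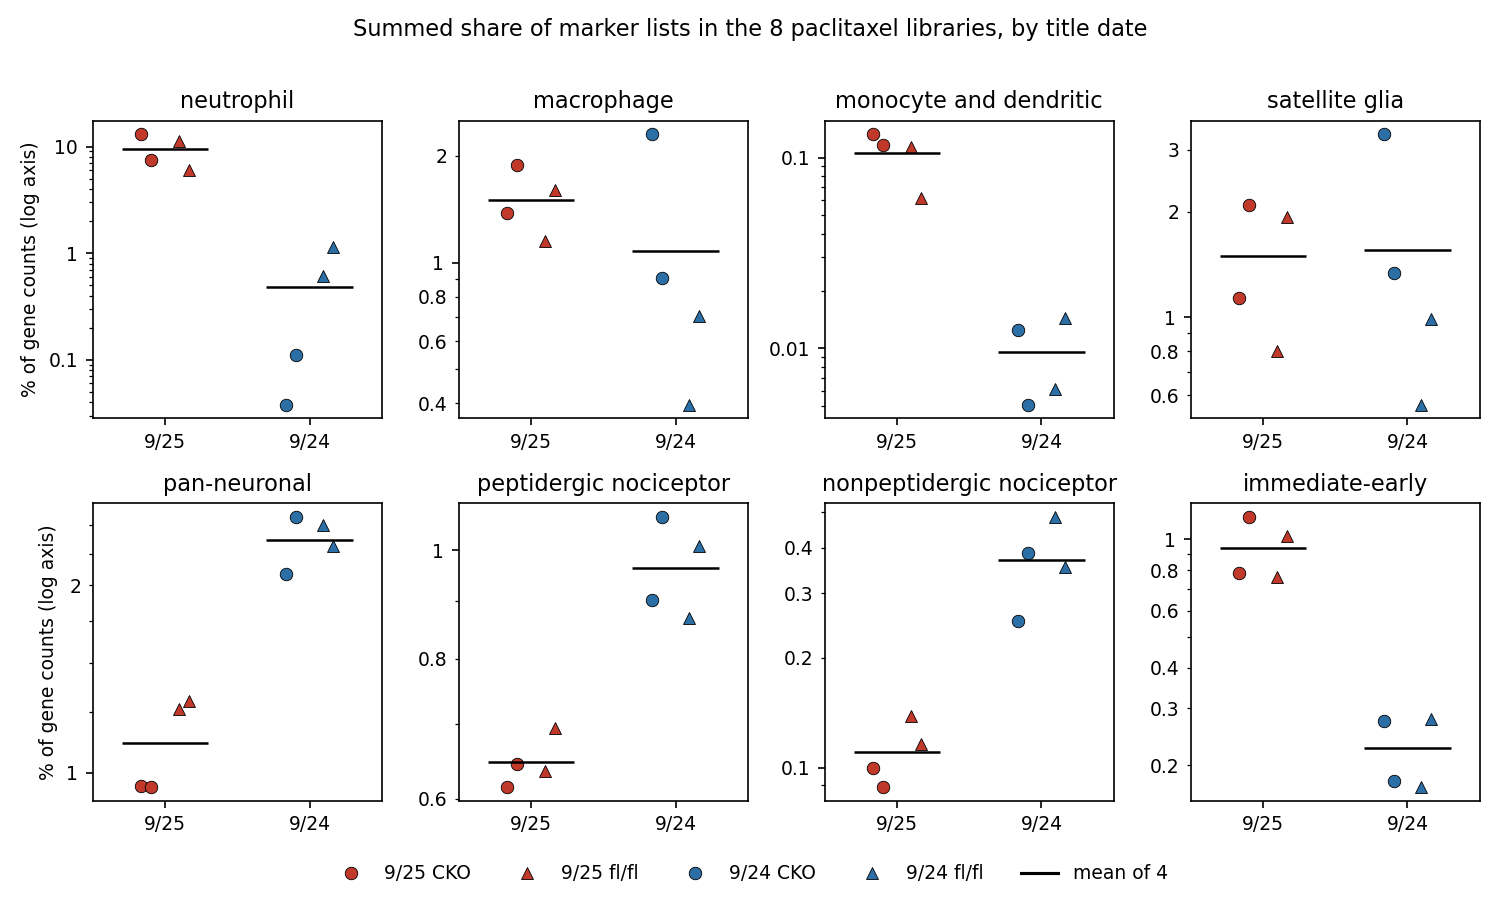
Summed share of gene counts of 8 marker lists (percent, log axes that differ between panels) in each of the 8 PTX libraries, with 9/25 left of 9/24, circles for CKO, triangles for fl/fl and lines at the mean of 4. Neutrophil, monocyte and dendritic and immediate-early shares lie higher on 9/25 and the 3 neuronal shares lower, with no overlap, while macrophage and satellite glia shares overlap.

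Macrophage markers were called higher for 11 of 20 members and lower for 0, with a median log2 fold change of 3.82. Fcgr3, a receptor for antibody-coated targets, had 338 and 326 CPM in CKO and 288 and 175 CPM in fl/fl on 9/25, against 7.37 and 5.94 CPM in CKO and 19.4 and 25.4 CPM in fl/fl on 9/24 (log2 fold change 4.48 ± 0.51, edgeR adjusted p = 0.00211). Csf1r, the receptor that macrophages need to survive, averaged 106 ± 23.1 CPM on 9/25 and 9.38 ± 5.15 CPM on 9/24. Emr1, the gene of the macrophage surface protein F4/80, averaged 75.3 ± 50.3 and 2.14 ± 1.40 CPM in the same order. On 9/24 both CKO libraries lay below both fl/fl libraries for Fcgr3, as for the neutrophil share, but not for Csf1r or Emr1. The part of the neutrophil share in the differences of the macrophage list was not tested. The summed share of the list overlapped between the dates, at 1.15% to 1.89% on 9/25 and 0.397% to 2.31% on 9/24. Its most abundant member, the lipid carrier gene Apoe, is also made by satellite glia and had 7910, 13181, 5429 and 11882 CPM on 9/25, against 21658, 8530, 3327 and 5839 CPM on 9/24 (edgeR adjusted p = 0.848). Without the CKO library 2 of 9/24, 7 macrophage markers were called.

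Genes of monocytes and dendritic cells were called higher for 5 of 10 members, or 3 of 10 without the CKO library 2 of 9/24. Cd74, the invariant chain of MHC class II, had 180 and 184 CPM in CKO and 267 and 131 CPM in fl/fl on 9/25, against 25.5 and 6.93 CPM in CKO and 6.95 and 22.9 CPM in fl/fl on 9/24. The class II genes H2-Aa and H2-Eb1 averaged 148 ± 47.5 and 119 ± 14.5 CPM on 9/25, against 14.6 ± 10.1 and 13.8 ± 8.04 CPM on 9/24, and all 3 genes were called. Ptprc, the pan-leukocyte marker CD45, was the member of the lymphocyte list that was called, of 5 tested, with 597 ± 233 CPM on 9/25 and 21.1 ± 21.7 CPM on 9/24. Of 4 tested mast cell and basophil genes 2 were called, the protease genes Prss34 and Cpa3, and the call of Cpa3 was lost on leaving out any 1 of 4 libraries. Prss34, a basophil protease, had 315, 102, 184 and 642 CPM on 9/25 and 0.542, 0.198, 8.79 and 21.7 CPM on 9/24. Of 3 tested erythroid genes 0 were called by edgeR, DESeq2 or limma-voom, with 1 higher at an unadjusted edgeR p under 0.05, and their summed share was at most 0.00797% on 9/25 and at most 0.00473% on 9/24.

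Pan-neuronal genes were lower on 9/25. Of 20 pan-neuronal genes, 13 were called lower and 0 higher, with a median log2 fold change of -0.92. Their summed share was 0.952% and 0.948% in CKO and 1.27% and 1.30% in fl/fl on 9/25, against 2.08% and 2.58% in CKO and 2.50% and 2.32% in fl/fl on 9/24. Nefl, the light neurofilament subunit, had 723 and 708 CPM in CKO and 953 and 999 CPM in fl/fl on 9/25, against 2383 and 2750 CPM in CKO and 2676 and 2378 CPM in fl/fl on 9/24 (log2 fold change -1.61 ± 0.13, edgeR adjusted p = 0.000642). The dates were well apart for Nefl, and the spread within a date was small. Tubb3, the neuronal beta-tubulin, averaged 1640 ± 249 CPM on 9/25 and 3607 ± 189 CPM on 9/24. Scn10a had 315 and 379 CPM in CKO and 545 and 316 CPM in fl/fl on 9/25, against 916 and 1113 CPM in CKO and 1326 and 1169 CPM in fl/fl on 9/24 (log2 fold change -1.54 ± 0.19, edgeR adjusted p = 0.00239). The presence of Scn10a in every library goes with the labelled tissue. With all 16 libraries in the model, 7 pan-neuronal genes were called lower.

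Nonpeptidergic nociceptor genes were lower by more than the pan-neuronal list, with 8 of 16 called lower, 0 called higher and a median log2 fold change of -1.85. Mrgprd, a receptor that defines the main nonpeptidergic class, had 90.4 and 68.4 CPM in CKO and 103 and 143 CPM in fl/fl on 9/25, against 405 and 713 CPM in CKO and 880 and 635 CPM in fl/fl on 9/24 (log2 fold change -2.72 ± 0.24, edgeR adjusted p = 0.000807). P2rx3, the ATP-gated channel of these cells, averaged 112 ± 27.5 CPM on 9/25 and 471 ± 156 CPM on 9/24. Cd55, which encodes a complement regulator, averaged 105 ± 34.8 and 480 ± 183 CPM in the same order. Mrgpra3, a chloroquine receptor of itch neurons, had 0.228, 0, 3.27 and 0.212 CPM on 9/25, against 83.4, 42.5, 84.6 and 66.6 CPM on 9/24. The 8 calls fell to 5 without the fl/fl library 1 of 9/24, without the CKO library 2 of 9/24 or without the fl/fl library 3 of 9/25, and to 2 with all 16 libraries in the model. The difference between the nonpeptidergic list and other neuronal lists was not tested.

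Peptidergic nociceptor genes moved less, with 3 of 10 called lower, 1 called higher and a median log2 fold change of -0.25. Calca, which encodes CGRP, had 3286 and 3227 CPM in CKO and 3393 and 2885 CPM in fl/fl on 9/25, against 5051 and 6022 CPM in CKO and 4835 and 5396 CPM in fl/fl on 9/24 (log2 fold change -0.74 ± 0.10, edgeR adjusted p = 0.00371). Calcb, its paralog, fell by 1.11 on the log2 scale. Tac1, which encodes substance P, averaged 1368 ± 97.9 CPM on 9/25 and 1589 ± 291 CPM on 9/24, with overlapping dates (edgeR adjusted p = 0.447). Gal, which encodes the neuropeptide galanin, was the member called higher, with 136, 145, 153 and 177 CPM on 9/25 and 80.1, 106, 103 and 99.5 CPM on 9/24 (log2 fold change 0.65 ± 0.17, edgeR adjusted p = 0.0474). The call of Gal was lost on leaving out any single library and with upper-quartile or total-count scaling. In the list of C-low-threshold mechanoreceptor and cold receptor genes 0 of 8 were called by edgeR or DESeq2 and 1 by limma-voom. At an unadjusted edgeR p under 0.05, 1 was higher and 1 lower. The median log2 fold change of this list was 0.67, not below 0 as in the lists above, and its summed share overlapped between the dates. Among 14 genes of myelinated afferents, Nefh, the heavy neurofilament, and Cntnap2, a juxtaparanodal protein, were called lower, and Spp1, which encodes osteopontin and is also expressed by macrophages, was called higher (123 ± 58.8 CPM on 9/25 and 18.1 ± 8.53 CPM on 9/24). Nefh and Cntnap2 lost their calls with all 16 libraries in the model, and Cntnap2 also on leaving out any 1 of 3 libraries.

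**Figure D3:**
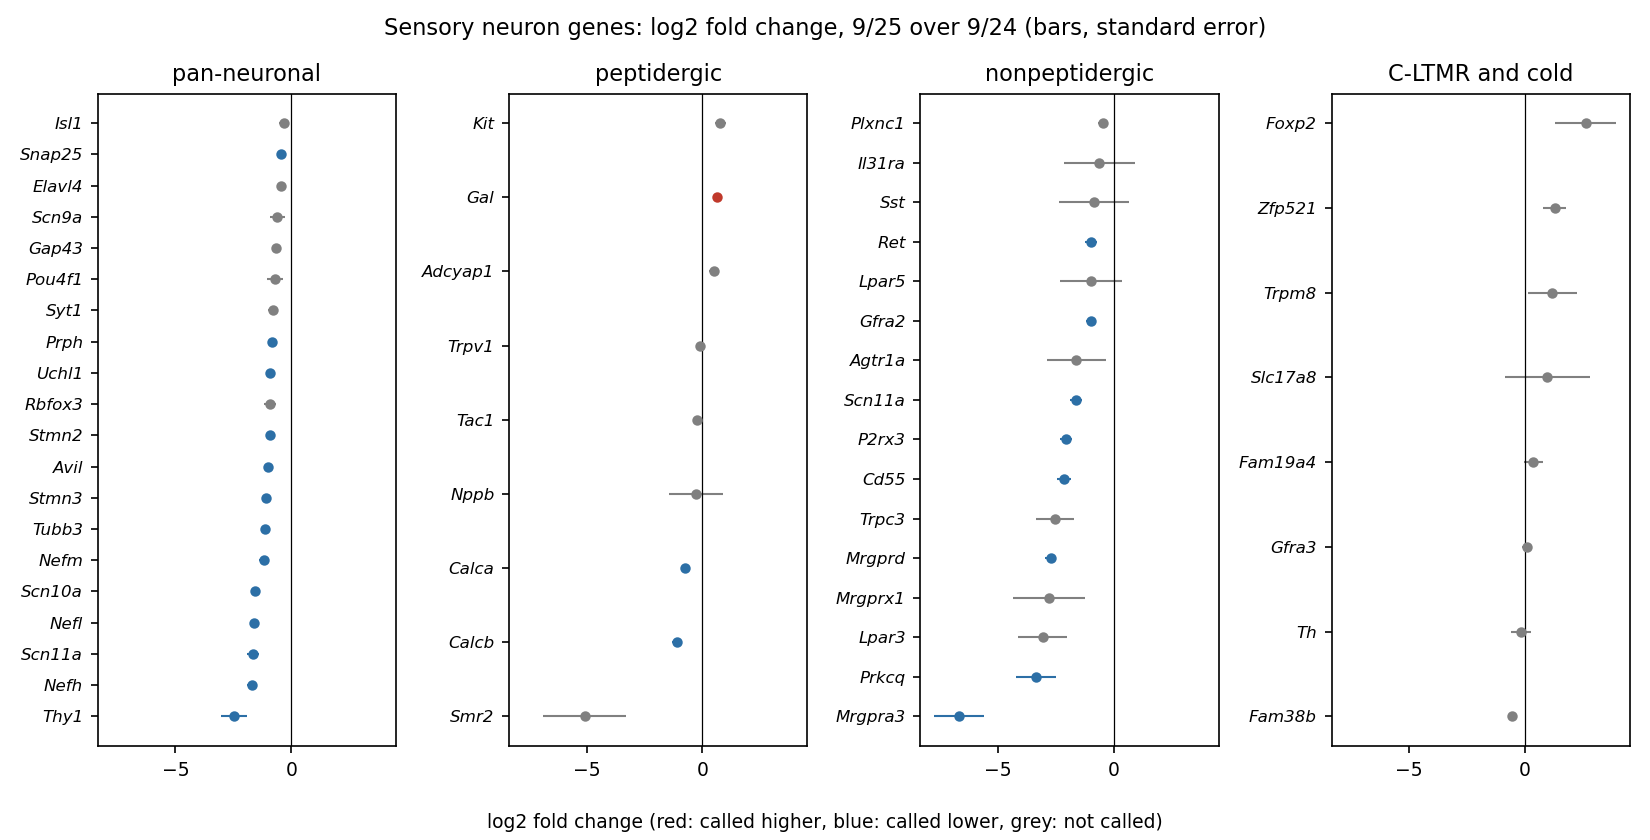
Log2 fold change, 9/25 over 9/24, of tested genes of 4 sensory neuron lists, 1 peptidergic gene left out (points, bars of 1 standard error), red where called higher, blue where called lower and grey where not called. The nonpeptidergic genes reach -6.68 (Mrgpra3), the pan-neuronal genes lie below 0, and the peptidergic genes lie on both sides of 0.

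Genes of tubulin and axonal transport and of synaptic vesicles followed the direction of the pan-neuronal genes. Of 24 tubulin and axonal transport genes, 12 were called lower and 0 higher, and of 24 synaptic vesicle genes, 10 lower and 0 higher. Stmn3, a tubulin-binding stathmin, averaged 584 ± 124 CPM on 9/25 and 1235 ± 134 CPM on 9/24, and Klc1, a kinesin light chain, 988 ± 180 and 1890 ± 172 CPM in the same order. Mtap1b, a microtubule-associated protein of axons, averaged 3978 ± 485 CPM on 9/25 and 6065 ± 435 CPM on 9/24. Syt11, a vesicle trafficking protein of the synaptotagmin family, fell by 0.81 on the log2 scale. The synaptic vesicle count was 2 without the fl/fl library 1, 6 without the fl/fl library 2 and 3 without the CKO library 2 of 9/24, and 2 with all 16 libraries in the model. Of 15 axon injury genes, Gal was called higher, and Lifr, a cytokine receptor subunit, and Bdnf, a neurotrophin, lower. Of all genes tested, 6.44% were called higher and 3.38% lower. All 3 calls were lost with all 16 libraries in the model. The pan-neuronal share was also lower on 9/25, and its part in the differences of these genes was not tested.

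Few glial and vascular genes were called by edgeR, beside 9.82% of all genes tested. In lists this short that share would also give few calls, so 0 called is not read as a result about these cells. Of 17 satellite glia genes 0 were called by edgeR, DESeq2 or limma-voom, with 1 higher and 1 lower at an unadjusted edgeR p under 0.05, and their summed share was 0.802% to 2.09% on 9/25 and 0.564% to 3.33% on 9/24. Fabp7, a fatty acid binding protein of satellite glia, had 797, 1521, 636 and 1547 CPM on 9/25, against 2808, 1192, 527 and 832 CPM on 9/24 (log2 fold change -0.05 ± 0.46, edgeR adjusted p = 0.969). Of 18 myelinating Schwann cell genes 0 were called by edgeR (1 higher and 1 lower at an unadjusted p under 0.05), 1 by DESeq2 and 2 by limma-voom. Pmp22, a myelin protein gene, averaged 963 ± 216 CPM on 9/25 and 1378 ± 138 CPM on 9/24 (edgeR adjusted p = 0.119). Among 8 genes of non-myelinating Schwann cells, Ngfr, the p75 neurotrophin receptor also made by neurons, was called lower, a call that was lost with limma-voom and on leaving out any 1 of 6 libraries. Of 15 endothelial genes 0 were called by edgeR, 2 by DESeq2 and 1 by limma-voom, with 1 higher and 1 lower at an unadjusted edgeR p under 0.05. Of 11 mural genes 0 were called by edgeR, but 5 were higher at an unadjusted p under 0.05, and DESeq2 called 6 and limma-voom 1. Their median log2 fold change was 2.52. Their summed share averaged 0.0706 ± 0.0379% on 9/25 and 0.0153 ± 0.00828% on 9/24, with overlapping dates. Acta2, the smooth muscle actin gene, had 316, 454, 41.8 and 307 CPM on 9/25, against 5.42, 6.93, 24.3 and 93.4 CPM on 9/24 (edgeR adjusted p = 0.0913). Of 15 fibroblast genes 3 were called higher, namely Pi16, Cldn1 and Gsn, and 2 without the fl/fl library 1 of 9/24. Pi16, a marker of adventitial fibroblasts, averaged 126 ± 36.8 CPM on 9/25 and 9.62 ± 4.72 CPM on 9/24, while the summed fibroblast share overlapped between the dates.

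**Figure D4:**
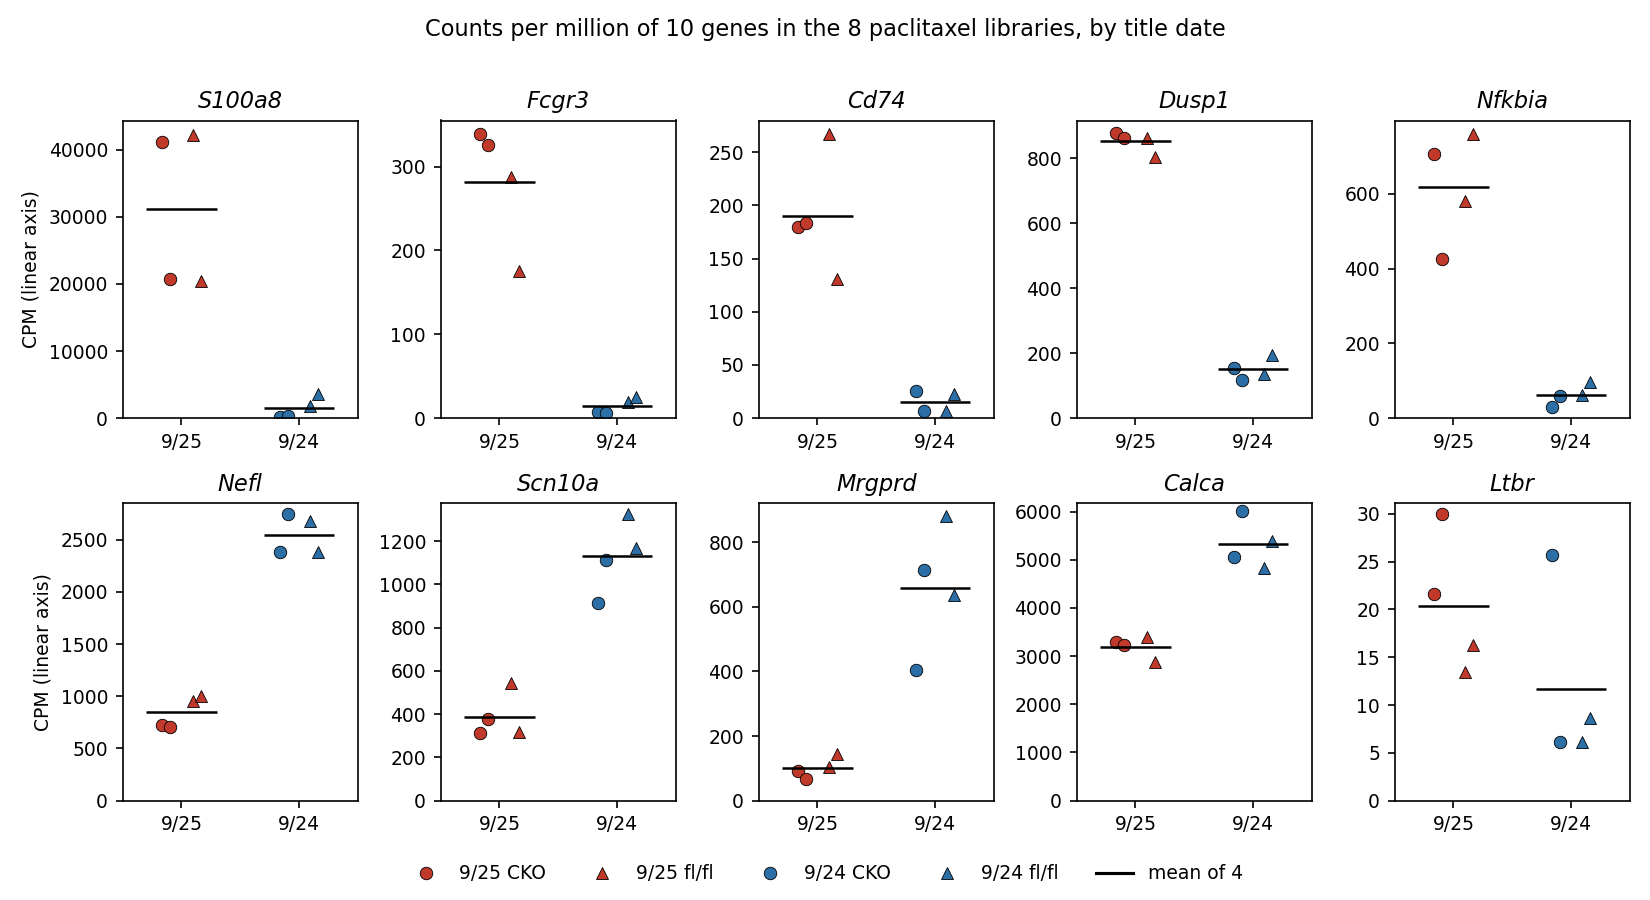
CPM of 10 genes in each of the 8 PTX libraries (linear axes from 0), with 9/25 left of 9/24, circles for CKO, triangles for fl/fl and lines at the mean of 4. The leukocyte genes S100a8, Fcgr3 and Cd74 and the induced genes Dusp1 and Nfkbia are higher in every library of 9/25, the neuronal genes Nefl, Scn10a, Mrgprd and Calca lower, and Ltbr overlaps.

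Immediate-early genes were higher on 9/25, with 16 of 26 called higher and 0 lower, 20 of 26 not overlapping upward and a median log2 fold change of 2.00. Their summed share was 0.787% and 1.17% in CKO and 0.763% and 1.03% in fl/fl on 9/25, against 0.274% and 0.179% in CKO and 0.171% and 0.278% in fl/fl on 9/24. In the vehicle libraries it was 0.969% to 1.59%. Dusp1, a phosphatase that switches off MAP kinases, had 878 and 861 CPM in CKO and 862 and 804 CPM in fl/fl on 9/25, against 154 and 117 CPM in CKO and 137 and 196 CPM in fl/fl on 9/24 (log2 fold change 2.50 ± 0.18, edgeR adjusted p = 0.000446). The 4 libraries of 9/25 were closer to each other for Dusp1 than for the other immediate-early genes named here, relative to their means. Zfp36, which destabilises cytokine mRNAs, averaged 838 ± 169 CPM on 9/25 and 92.6 ± 28.9 CPM on 9/24. Btg2, an antiproliferative gene, had 542, 771, 549 and 588 CPM on 9/25, against 27.2, 58.2, 76.5 and 117 CPM on 9/24. Fos, a subunit of the AP-1 transcription factor, averaged 1923 ± 292 CPM on 9/25 and 464 ± 153 CPM on 9/24, and its partner Junb 885 ± 132 and 194 ± 44.8 CPM in the same order. Nr4a1, an orphan nuclear receptor, averaged 1443 ± 323 CPM on 9/25 and 239 ± 102 CPM on 9/24. The list holds genes that both neurons and leukocytes can induce, and the part of the neutrophil share in these differences was not tested.

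The promoters of 3 called immediate-early genes are shown because each holds a motif known from stimulus-induced genes. Windows of 300 bases around gene starts, 250 of them upstream, were taken from RefSeq (GRCm38.p6). The cyclic AMP response element TGACGTCA, searched on both strands, was in a promoter of 2.03% of 27025 genes. Of the 21 immediate-early genes with an entry, it was in Dusp1 and Btg2. The CArG box, the site read by serum response factor, was in a promoter of 1.81% of all these genes. Of the same 21 genes, it was in Zfp36 and in Egr2, which was not called. Capitals mark the cyclic AMP response element in Dusp1 (chr17:26508423-26508722, minus strand, 143 bases upstream of the start) and Btg2 (chr1:134079106-134079405, minus strand, 166 bases upstream), and the CArG box in Zfp36 (chr7:28379179-28379478, minus strand, 58 bases upstream).
Dusp1: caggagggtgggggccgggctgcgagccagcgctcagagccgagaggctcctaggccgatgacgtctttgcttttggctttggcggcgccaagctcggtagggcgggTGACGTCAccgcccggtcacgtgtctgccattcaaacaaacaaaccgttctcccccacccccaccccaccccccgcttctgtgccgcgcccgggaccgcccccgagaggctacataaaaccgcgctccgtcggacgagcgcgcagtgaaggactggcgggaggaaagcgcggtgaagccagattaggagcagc
Btg2: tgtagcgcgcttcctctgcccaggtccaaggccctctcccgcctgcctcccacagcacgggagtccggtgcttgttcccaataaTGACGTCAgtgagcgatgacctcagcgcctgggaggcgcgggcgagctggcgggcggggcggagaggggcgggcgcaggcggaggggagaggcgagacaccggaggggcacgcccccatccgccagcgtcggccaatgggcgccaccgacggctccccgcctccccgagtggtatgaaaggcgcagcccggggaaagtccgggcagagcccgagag
Zfp36: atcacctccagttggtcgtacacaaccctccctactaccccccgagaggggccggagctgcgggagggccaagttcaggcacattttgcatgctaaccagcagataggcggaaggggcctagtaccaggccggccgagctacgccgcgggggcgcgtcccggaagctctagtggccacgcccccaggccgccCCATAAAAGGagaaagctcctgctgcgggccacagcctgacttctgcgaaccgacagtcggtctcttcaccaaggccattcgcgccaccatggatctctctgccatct
A match in these windows is a description of the sequence and not a measured binding site.

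Heat shock genes showed no such common rise. Of 17 heat shock genes, 6 were called lower and 1 higher, and the lower count was 3 without the CKO library 2 of 9/24. Hsp90ab1, a constitutive chaperone, averaged 2430 ± 219 CPM on 9/25 and 4190 ± 359 CPM on 9/24 (log2 fold change -0.79 ± 0.11, edgeR adjusted p = 0.00342). Hsp90aa1, Hspb8 and Bag3, chaperones or co-chaperones, fell by 0.90, by 0.92 and by 0.80 on the log2 scale. The member called higher was Hspa1a, an inducible Hsp70 gene, with 140, 151, 96.8 and 132 CPM on 9/25 and 62.8, 24.0, 36.2 and 47.7 CPM on 9/24, which is named here because of its value and has a near-identical copy in Hspa1b. Of 21 unfolded protein and integrated stress response genes 2 were called higher, Sesn2 and Ppp1r15a, and 0 lower. Of 18 antioxidant and hypoxia genes 2 were called higher and 2 lower. Of all genes tested, 6.44% were called higher and 3.38% lower. In lists this short such shares would also give few calls, so the counts of these lists are not read as a result about them. Slc7a11, the cystine importer, rose to 245, 163, 297 and 209 CPM on 9/25, against 1.84, 4.45, 8.71 and 20.7 CPM on 9/24 (log2 fold change 5.01 ± 0.56, edgeR adjusted p = 0.00202), and Slc2a1, the glucose transporter GLUT1, averaged 236 ± 77.3 and 97.02 ± 18.2 CPM in the same order of dates. Bnip3 and Srxn1 were the 2 called lower. The call of Bnip3 was lost on leaving out any single library, that of Srxn1 on leaving out any 1 of 7, both with RLE scaling and with all 16 libraries in the model, and that of Slc2a1 on leaving out any 1 of 4.

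Genes of the p53 and apoptosis list were called higher for 7 of 14 members and lower for 0. The count was 3 without either fl/fl library or the CKO library 2 of 9/24, and 4 without either fl/fl library of 9/25 or the CKO library 1 of 9/24. Bcl2l11, the pro-apoptotic gene Bim, had 56.6 and 98.6 CPM in CKO and 75.6 and 96.6 CPM in fl/fl on 9/25, against 2.82 and 5.25 CPM in CKO and 9.38 and 8.06 CPM in fl/fl on 9/24. Gadd45b and Gadd45a, both induced by DNA damage and by cytokines, averaged 71.5 ± 27.8 and 108 ± 34.0 CPM on 9/25, against 13.5 ± 6.27 and 20.2 ± 9.59 CPM on 9/24. Cdkn1a, the cell cycle inhibitor p21, averaged 204 ± 61.8 CPM on 9/25 and 93.3 ± 25.7 CPM on 9/24 (edgeR adjusted p = 0.0294), and its call was lost on leaving out any 1 of 6 libraries.

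Of 23 tested cytokine and chemokine genes, 10 were called higher and 0 lower, with a median log2 fold change of 3.79. Il1b, which encodes interleukin-1 beta, had 1134 and 812 CPM in CKO and 1431 and 1036 CPM in fl/fl on 9/25, against 1.52 and 12.3 CPM in CKO and 65.1 and 101 CPM in fl/fl on 9/24 (log2 fold change 5.47 ± 0.90, edgeR adjusted p = 0.00737). Il6, a cytokine of the acute phase, averaged 87.5 ± 46.5 CPM on 9/25 and 1.82 ± 1.32 CPM on 9/24. Ccl3 and Ccl4, chemokines that attract monocytes, averaged 207 ± 43.7 and 139 ± 35.4 CPM on 9/25, against 8.36 ± 8.30 and 7.24 ± 4.41 CPM on 9/24. Il1rn, the interleukin-1 receptor antagonist, averaged 172 ± 74.2 CPM on 9/25 and 7.20 ± 5.603 CPM on 9/24. The summed share of the list was 0.221% to 0.286% on 9/25, against 0.0112% to 0.0305% on 9/24, and 0.194% to 0.479% in the vehicle libraries. The neutrophil share, 6.04% to 13.1% on 9/25 against 0.0380% to 1.15% on 9/24, moved with this list and with the signalling genes below, and its part in their differences was not tested.

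Of 21 tested genes of lymphotoxin and NF-kB signalling, the pathway that Ltbr feeds, 10 were called higher and 0 lower, while Ltbr was not called. Their summed share was 0.177% to 0.237% on 9/25, against 0.0376% to 0.0544% on 9/24, and 0.157% to 0.283% in the vehicle libraries. Nfkbia, the inhibitor that NF-kB itself induces, had 708 and 425 CPM in CKO and 582 and 760 CPM in fl/fl on 9/25, against 28.7 and 58.0 CPM in CKO and 60.9 and 95.8 CPM in fl/fl on 9/24 (log2 fold change 3.40 ± 0.32, edgeR adjusted p = 0.00106). Nfkb2, the precursor of the non-canonical subunit p52, averaged 113 ± 29.5 CPM on 9/25 and 6.33 ± 2.71 CPM on 9/24. Birc3, an inhibitor of apoptosis, averaged 88.6 ± 31.2 and 6.998 ± 2.68 CPM in the same order, and Tnfaip3, the NF-kB brake A20, 282 ± 122 and 16.1 ± 12.5 CPM. Of 10 MHC class I genes 4 were called higher, or 2 of 10 without either fl/fl library or the CKO library 2 of 9/24. H2-D1, a classical class I gene, averaged 1615 ± 191 CPM on 9/25 and 548 ± 68.9 CPM on 9/24. Of 23 interferon response genes 2 were called higher, Ifitm3 and Irf7, and Stat2 was called lower, counts near the shares of all genes. The call of Irf7 was lost on leaving out any 1 of 6 libraries, and that of Stat2 with all 16 libraries in the model.

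Among housekeeping lists, 0 of 25 ribosomal protein genes were called by edgeR and 1 by each of DESeq2 and limma-voom, with 1 higher at an unadjusted edgeR p under 0.05, and 5 of 21 oxidative phosphorylation genes were called lower. The 5 fell to between 1 and 3 on leaving out any library other than the CKO library 4 of 9/25, and were 13 when libraries were scaled to total counts. Atp5b, a subunit of the ATP synthase, averaged 1274 ± 53.7 CPM on 9/25 and 1690 ± 124 CPM on 9/24 (edgeR adjusted p = 0.0407, not called by DESeq2), and Ndufa4, a respiratory chain subunit, 237 ± 22.3 and 436 ± 51.1 CPM. Of 20 proliferation genes 3 were called higher, Top2a, Mcm6 and Birc5, and 0 lower, beside 6.44% and 3.38% of all genes tested. The 3 calls were lost without the fl/fl library 1 of 9/24, the CKO library 2 of 9/24 or the CKO library 3 of 9/25, 1 was made without the CKO library 1 of 9/24 or the fl/fl library 3 of 9/25, and 5 and 6 were made without the fl/fl libraries 2 of 9/24 and 4 of 9/25. Mki67, a marker of cycling cells, had 123, 127, 62.1 and 2.65 CPM on 9/25, against 0.434, 0.495, 0.753 and 6.999 CPM on 9/24 (edgeR adjusted p = 0.0657).

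Several of the genes with the largest fold changes had few or no counts on 9/24. Gzmc, a granzyme, had 10.96, 20.3, 3.95 and 61.9 CPM on 9/25 and 0 counts on 9/24, so it was at least 355-fold higher against a floor of 3 counts over the 4 libraries. Slamf7, a leukocyte surface receptor, was at least 127-fold higher by the same floor, but lost its call on leaving out any single library. Il10, an anti-inflammatory cytokine, had 308 counts on 9/25 and 1 count on 9/24, a ratio of 374 per effective library size with a 95% counting interval of 66.7 to 14840. Il4, a cytokine that basophils make, had 219 counts on 9/25 and 1 on 9/24. Other genes so named were Vnn3, Cyp3a13, Slc24a1, Serpinb2, Pdcd1lg2, Stfa1 and Abca13, all higher in every library of 9/25. Leaving out any 1 of 5 libraries ended the call of Il10 or Slc24a1, and any 1 of 4 that of Il4, Cyp3a13 or Pdcd1lg2. Serpinb2, an inhibitor of plasminogen activators, had 148, 24.9, 77.7 and 139 CPM on 9/25, against 0.108, 0, 0.586 and 4.34 CPM on 9/24.

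In the other direction, Htr3b, a subunit of the serotonin-gated channel, had 0 counts in all 4 libraries of 9/25, against 37.2 and 22.97 CPM in CKO and 16.7 and 17.4 CPM in fl/fl on 9/24, and so was at least 266-fold lower. Cpn1, Abcc8, Spsb4 and Cryz were also at 0 in every library of 9/25 and at 2.18 to 18.0 CPM in every library of 9/24. Abcc8 encodes the sulfonylurea receptor of ATP-sensitive potassium channels. Trpc6, a cation channel, had 0.114, 0, 1.92 and 0.106 CPM on 9/25, against 35.1, 36.3, 62.2 and 36.4 CPM on 9/24. Ly86, which encodes the Toll-like receptor partner MD-1, fell to 36.2, 61.3, 56.7 and 18.3 CPM on 9/25, against 442, 732, 632 and 437 CPM on 9/24 (log2 fold change -3.71 ± 0.40, edgeR adjusted p = 0.00166). Ly86 is known from leukocytes, yet it was lower where leukocyte markers were higher. Zfp39, Zfp804a, Creg2 and Prkcq completed the named genes that fell. Calls were lost on leaving out any 1 of 7 libraries for Prkcq, any 1 of 6 for Cryz, Abcc8 and Zfp804a, any 1 of 5 for Spsb4, any 1 of 4 for Cpn1 and any 1 of 3 for Creg2.

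No gene passed the test of whether the date difference itself differed between the genotypes. The interaction of genotype and date gave 0 of 14216 genes (0%) in edgeR, whose smallest adjusted p was 0.218, and 634 genes at an unadjusted p under 0.05, 425 of them with the larger value in CKO. Limma-voom called 0, with 677 at an unadjusted p under 0.05. Both of these unadjusted counts were below the nominal rate of their threshold. DESeq2 called 161 with a larger and 21 with a smaller value in CKO. The named genes with the larger value in CKO were near 0 in the CKO libraries of 9/24. Ncf1, a subunit of the phagocyte NADPH oxidase, had 988 and 629 CPM in CKO and 725 and 360 CPM in fl/fl on 9/25, against 2.28 and 3.37 CPM in CKO and 42.7 and 73.7 CPM in fl/fl on 9/24 (edgeR adjusted p = 0.232 for the interaction). Pram1, Lilrb4 and Hk3 had the same pattern, with at most 1.09 CPM in CKO and 8.20 to 25.6 CPM in fl/fl on 9/24. In the other direction Wdr5b, Zfp759, Nkain1 and Mrap2 had 0 CPM in both CKO libraries of 9/25 and 3.05 to 19.8 CPM in fl/fl on 9/25, against 4.26 to 15.8 CPM in CKO and 2.26 to 8.04 CPM in fl/fl on 9/24. Nptx1, a neuronal pentraxin, had 91.1 and 69.7 CPM in CKO and 135 and 242 CPM in fl/fl on 9/25, against 228 and 270.1 CPM in CKO and 153 and 189 CPM in fl/fl on 9/24 (edgeR adjusted p = 0.668 for the interaction). Calls were made when some libraries were left out, 49 larger in CKO without the fl/fl library 3 of 9/25, and 16 larger and 227 smaller without the CKO library 3 of 9/25.

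Fitted alone, the 4 CKO libraries gave 285 genes higher and 10 lower on 9/25, and the 4 fl/fl libraries gave 0 of 13495, with 2394 at an unadjusted p under 0.05. The fits share no library, so the genes called in CKO could be read in fl/fl. The genes are not separate observations, since all were read in the same few libraries of the same dates. The neutrophil share was higher on 9/25 in both genotypes, and its part in the counts below was not tested. All 285 that were higher in CKO had a positive log2 fold change in fl/fl, as had 48.1% of the 12849 genes tested in both, and for 269 of them (94.4%) the fl/fl libraries of 9/25 did not overlap with those of 9/24, against 21.8% of all genes. All 10 that were lower in CKO were also lower in fl/fl. The median log2 fold change of the 285 genes was 6.39 in CKO and 3.32 in fl/fl.

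**Figure D5:**
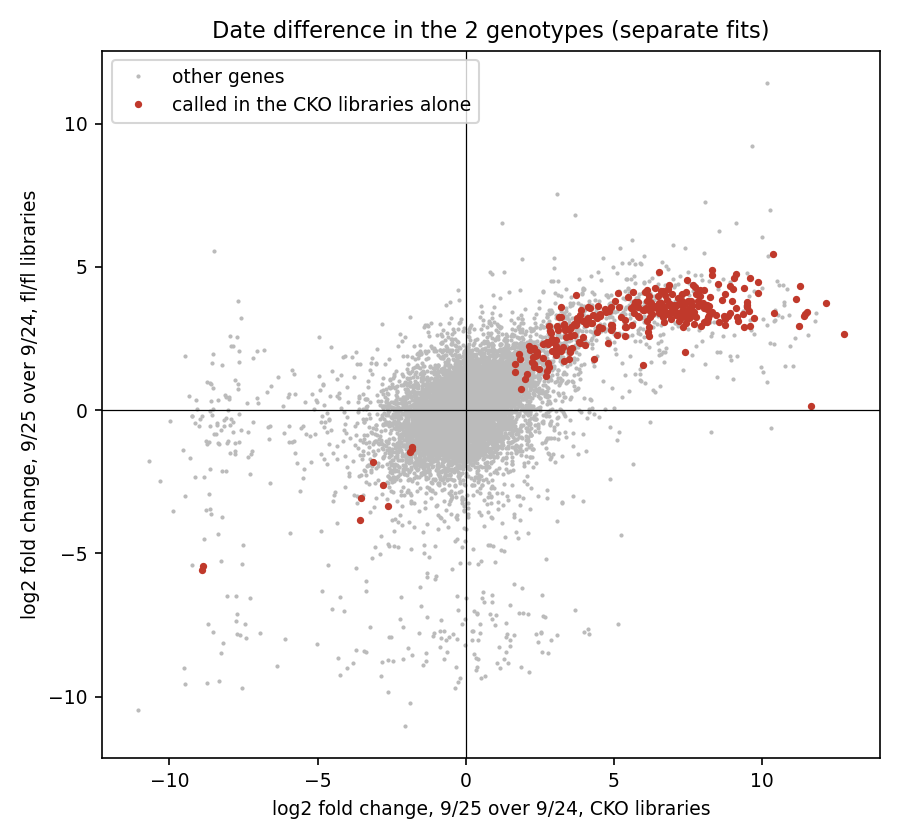
Log2 fold change, 9/25 over 9/24, of each gene in the 4 CKO libraries (x axis) and in the 4 fl/fl libraries (y axis), from separate fits of 2 against 2 libraries, with the genes called in CKO alone in red. The 285 genes called higher in CKO lie above 0 in fl/fl, most at a smaller fold change.

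The 8 vehicle libraries of the series, labelled as given water and sorted from the same genotypes, carried the title dates 10/2 and 10/1 and gave a second pair of dates. The vehicle dates differed in opposite directions in the genotypes for the neutrophil share, and the contrast averages over genotypes. That share was 9.09% and 9.27% in fl/fl on 10/2, against 19.6% and 18.7% on 10/1. In CKO it was 20.3% and 20.8% on 10/2, against 8.29% and 13.3% on 10/1. The difference between the dates under PTX minus that under vehicle was past the threshold for 1114 of 15104 genes (7.38%), 783 with a more positive change under PTX (5.18%) and 331 with a more negative one (2.19%). Serpinb2 had 134 and 23.6 CPM in CKO and 70.2 and 133 CPM in fl/fl on 9/25, and at most 4.33 CPM on 9/24, while the vehicle libraries held 25.8 to 163 CPM on 10/2 and 34.9 to 154 CPM on 10/1 (all on the scale of the fit of 16 libraries). The test of the difference gave a log2 value of 8.20 ± 1.05 (edgeR adjusted p = 0.000209). Ugt1a7c, Ctsg, Stfa1 and Tnfsf14 were the others named as more positive. Ctsg had 34.8 to 98.4 CPM on 10/2 and 49.8 to 230 CPM on 10/1. For these genes the mean of each vehicle date was nearer to the PTX libraries of 9/25 than to those of 9/24. Rspo2, a secreted enhancer of Wnt signalling, had 13.6, 0.119, 23.1 and 34.2 CPM on 9/25, against 48.8, 125, 154 and 141 CPM on 9/24, while vehicle libraries had 2.81 to 14.9 CPM on 10/2 and 0 to 0.336 CPM on 10/1 (log2 difference -10.29 ± 1.66, edgeR adjusted p = 0.00169). Prkaa2, a catalytic subunit of the energy sensor AMPK, overlapped between the PTX dates and was at 5.82 to 35.6 CPM on 10/2, against 0 to 0.117 CPM on 10/1, so its call came from the vehicle dates. Creg2, Osbpl10 and Trpc6 were the others named as more negative. In the fits of each genotype alone, the log2 fold change under PTX was -3.55 in CKO and -2.26 in fl/fl for Rspo2. For Osbpl10 it was -4.60 and -1.17 in the same order, against a log2 difference of -9.85. For Creg2 it was -7.28 and -6.54, against a log2 difference of -12. The differences of all 3 genes thus drew in part on the vehicle dates, and those of Rspo2 and Osbpl10 for the larger part.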

How the data were processed

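Per the labels' protocols, libraries were stranded poly(A) preparations of sorted dorsal root ganglion cells. Per the submitters' processing notes, bcl2fastq, TopHat2, HTSeq and the mouse build mm9 were used, with no versions stated and no statement of the strand setting. Each library was deposited as raw whole-number counts for 22609 gene entries, beside 5 summary lines. From these counts, genes were filtered with filterByExpr, scaled by TMM and tested two-sided with edgeR 4.0.16 (quasi-likelihood, robust, R 4.3.3), with Benjamini-Hochberg adjustment over all genes tested and a threshold of 0.05. The 8 PTX libraries were fitted with date and genotype, or with their interaction. All 16 were fitted as 8 groups for the contrast with the vehicle dates. CPM use effective library sizes, and shares use gene counts as deposited. Each standard error is the log2 fold change divided by the root of its F statistic. The analysis was tested on simulated counts.

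The common biological coefficient of variation of the date fit was 0.788, with 5 residual degrees of freedom. Counting intervals and floors cover counting error only. No deposited pair of libraries was identical. Of 616 genes in 42 lists, 603 were matched by symbol, 10 through another symbol and 3 not at all. The libraries compared, the lists and the tests were chosen with earlier results of these data known. Named genes were those called with the largest fold change, at least 5 CPM in the higher date dates that did not overlap and no clone or predicted-gene name, at most 12 in each direction and 5 in each other fit (by smallest p where none was called), then up to 4 called members of smallest adjusted p and the 2 most abundant of each list, of which the text gives part, and a few genes are not reported here. Per the file summary lines, alignments that were not unique were kept apart from gene counts, so genes with near-identical copies (Hspa1a, H2-D1, H2-T23, Ly6c2, Stfa1, Lilrb4, Ugt1a7c) and overlapping genes are uncertain. Alternatives were RLE, upper-quartile and total-count scaling, the low-count filter left off or set to 5 CPM in at least 4 libraries, DESeq2 1.42.0, limma 3.58.1 with voom and quality weights, no genotype block, all 16 libraries, each genotype alone, a replicate block, list shares over effective library sizes, and leaving out each library. The fit without both libraries numbered 4 of 9/25 and the crossed pairing were added after seeing the data. No genome of the build mm9 was used here, so the files' genes have no coordinates, and promoter coordinates are those of GRCm38.p6.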

Additional observations from a re-analysis of the deposited data

Results flagged for a closer look

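The check covered 349 sets of the 4 libraries of a date (library measures, list shares and named genes). Of these, 23 (6.59%) had a highest or lowest library beyond Dixon's 95% critical value for 4 samples. The nominal rate of 5% does not apply here, since the sets share libraries and genes and mix genotypes. Where the other 3 libraries had 0 counts, any count at all was flagged, whatever its size. In the CKO library 1 of 9/24, the summed share was low for B-cell progenitor genes (0.0139%) and axon injury genes (0.220%), high for MHC class I genes (0.350%), and Fas had 0 CPM. In the CKO library 4 of 9/25, platelet and megakaryocyte genes were high (0.0101%) and ribosomal protein genes low (0.123%), and Zfp804a had 0.126 CPM where the other 3 had 0. The CKO library 3 of 9/25 was low for P2rx3 (71.1 CPM), and its Zfp39 was 0.114 CPM where the other 3 had 0. The fl/fl library 3 of 9/25 was high for Mrgpra3 (3.27 CPM) and Trpc6 (1.92 CPM) and low for Acta2 (41.8 CPM). The fl/fl library 4 of 9/25 was low for Csf1r (71.5 CPM) and high for Il4 (13.03 CPM). On 9/24, H2-T23 was low in the CKO library 2 (12.6 CPM), Mki67 was high in the fl/fl library 2 (6.999 CPM) and Trpc6 was high in the fl/fl library 1 (62.2 CPM). A single library of 9/24 held all counts of Il10, Cyp3a13 and Il4 (0.0886 CPM each, fl/fl library 2), Pdcd1lg2 (0.532 CPM, fl/fl library 2), Vnn3 (0.335 CPM, fl/fl library 1) and Slc24a1 (0.167 CPM, fl/fl library 1).

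The date difference under PTX differed from that under vehicle, by the test of the difference itself (edgeR, 16 libraries), for the 10 genes named in that contrast. The log2 difference was 8.33 for Ugt1a7c, 8.20 for Serpinb2, 8.19 for Ctsg, 8.10 for Stfa1 and 7.68 for Tnfsf14. It was -12.00 for Creg2, -10.29 for Rspo2, -10.09 for Prkaa2, -9.85 for Osbpl10 and -9.48 for Trpc6. Of these 10, 7 kept their call under all 23 alternatives, and Creg2, Osbpl10 and Trpc6 lost it under some.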

How the results depend on the processing

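For the date difference, 120 named genes were called and 0 reversed under 20 alternatives, and the call held in 1933 of 2388 gene and setting pairs. Of the 120, 77 kept the call whichever single library was left out. The fl/fl libraries alone called 0 genes in either direction (2394 at an unadjusted edgeR p under 0.05; no other tool was run there), and the CKO libraries alone 285 higher and 10 lower. DESeq2 called 1591 higher and 841 lower, limma-voom 1528 and 938. Genes lower numbered 774 with total counts, 243 with all 16 libraries and 732 without both libraries numbered 4 of 9/25. Leaving out 1 library, whose remaining partner was assumed to vary like the other groups, gave 466 to 974 higher and 172 to 465 lower. Among genes not called, Fabp7 changed sign under RLE scaling (0.0252), the 5 CPM filter (0.0238), DESeq2 (0.0252) and in fl/fl alone (0.69), and ranged from -0.51 to 0.38 over single omissions. Apoe changed sign without the genotype block (-0.0354), in CKO alone (-0.49) and without both libraries numbered 4 (-0.28), and over single omissions ranged from -0.21 to 0.66.

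For the interaction, where 0 were called, 20 genes were larger in CKO with no filter, 161 larger and 21 smaller with DESeq2, and 0 to 49 larger and 0 to 227 smaller without single libraries. Same-numbered libraries were not taken as pairs, because their deviations correlated at -0.176 on 9/24 and 0.0735 on 9/25, although within 9/25 both libraries numbered 3 correlated best with each other (0.885) and had larger neutrophil shares than both numbered 4, which correlated least (0.621). A replicate block gave 2 larger and 0 smaller, and the block with replicates 1 and 2 of 9/24 crossed between genotypes gave 0. For the contrast with vehicle, DESeq2 gave 1208 more positive and 798 more negative, and single omissions 631 to 815 and 186 to 561, the lower count falling to 186, 218 and 193 without the fl/fl libraries 1 and 2 and the CKO library 2 of 9/24 and to 210 without the fl/fl library 4 of 9/25, and reaching 525 without the CKO library 3 of 9/25 and 561 without the CKO library 1 of 10/1. Except where fewer libraries were fitted, the cause of these changes was not tested. With 2 libraries per genotype and date and a common biological coefficient of variation of 0.788, small changes of low genes could not be told apart from the spread.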
